A study of Homo sapiens with 27 samples.

Results

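Albumin, alpha-fetoprotein and 8 further proteins that the liver releases into plasma were followed across 9 polycyclic aromatic hydrocarbons in HepG2 cells, a human hepatocellular carcinoma line that keeps many secretory functions of hepatocytes. The genes were ALB, AFP, GC, TTR, TF, AMBP, AHSG, RBP4, SERPINA1 and HPX. They were taken as every non-control probe whose gene name in the scanner output is one of these symbols, which gave 10 of 30859 gene names and 16 of 41000 probes on the platform shared by 8 compounds. The ninth compound was run on another platform, where 15 of the 16 probes were fitted. ALB had 3 probes, TF had 4, AHSG had 2 and the other 7 genes had 1 each.

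The exposure lasted 48 h, and the compounds were BF (benzo[k]fluoranthene), IND (indeno[1,2,3-c,d]pyrene), BaP (benzo[a]pyrene), NP (naphthalene), DBA (dibenzo[a,h]anthracene), BA (benzo[a]anthracene), PH (phenanthrene), CHR (chrysene) and 3MC (3-methylcholanthrene). Control cells received the solvent dimethyl sulfoxide (DMSO). Each compound had 3 arrays, 27 in all, on which its RNA was labelled with Cy5 and hybridised beside Cy3-labelled RNA of DMSO cells. No array had the dyes exchanged, and any bias of a probe towards a dye therefore stays in its ratio. Doses are not given in the sources used here, so the compounds are compared as they were applied. Nothing in the labels says whether the 3 arrays of a compound came from separate cultures, and p-values cover only the variation among these arrays, possibly technical.

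Albumin is the main protein of adult plasma and carries fatty acids, bilirubin and many drugs, and alpha-fetoprotein is its fetal relative, silenced in the adult liver and expressed again in many liver tumours. Both genes belong to a family that also holds GC, the carrier of vitamin D, and the 3 genes lie on chromosome 4. Their promoters, like those of many liver-secreted proteins, are known to be bound by liver-enriched factors such as those of the C/EBP family. The other members carry retinol and thyroxine (RBP4, TTR), iron (TF) and heme (HPX), or inhibit proteases and mineral deposition (SERPINA1, AMBP, AHSG).

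RefSeq promoter windows (GRCh38.p14) were at hand for 8 of the 10 genes, 12 windows in all because TF, RBP4 and SERPINA1 have several starts. Over the 150 bases before each start, the 6-base motif GTTAAT, searched on both strands, stood in 3 of the 12 windows, against 3.52% of 35116 promoter windows of the same length. These 3 windows are shown because they hold the motif. Capitals mark the motif, and each window ends with the base before the start.
ALB, chr4:73404137-73404286, plus strand: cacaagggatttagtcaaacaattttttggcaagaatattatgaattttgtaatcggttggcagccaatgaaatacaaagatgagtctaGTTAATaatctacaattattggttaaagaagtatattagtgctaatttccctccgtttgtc
AFP, chr4:73436071-73436220, plus strand: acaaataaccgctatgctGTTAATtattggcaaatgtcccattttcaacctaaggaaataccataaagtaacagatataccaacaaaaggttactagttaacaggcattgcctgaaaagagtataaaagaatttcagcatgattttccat
SERPINA1, chr14:94388603-94388752, minus strand: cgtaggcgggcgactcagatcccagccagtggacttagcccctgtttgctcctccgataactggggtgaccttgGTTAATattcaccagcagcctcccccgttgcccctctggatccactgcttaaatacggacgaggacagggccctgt
The motif began 61 bases before the start of ALB, 132 bases before that of AFP and 76 bases before this start of SERPINA1. In the AFP window a CCAAT pentamer on the opposite strand began 125 bases before the start, next to the motif, and in none of the 3 windows did it overlap a CCAAT match. CCAAT stood in 6 of the 12 windows, against 23.5% of all windows, TATAAA in 2 (6.71% of all) and GCGTG, the core bound by the aryl hydrocarbon receptor with its partner, in 2 (23.5% of all). A match is a description of the letters and was not tested as a site.

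DBA, 3MC and NP arrays were dim, with a median Cy5 signal of 70 to 164 scanner units, against 341 to 1535 on the others. Many member spots lay near the scanner's ceiling. On the arrays of the other 6 compounds, 63 of 288 member spots were saturated in Cy5 and 74 in Cy3 (over 10% of pixels at the ceiling), against 0 of 144 in either channel on the DBA, 3MC and NP arrays. A ratio with 1 channel saturated on all 3 arrays is given as a lower bound on the loess scale, and with both channels saturated it gives no size. At the other end, GC stood near background: its Cy3 signal was 39 to 85 on the DBA, 3MC and NP arrays over a local background of 33 to 47. BA array 1 stood apart, correlating at 0.18 and 0.13 across probes with the other BA arrays, while other pairs of arrays of 1 compound correlated at 0.80 to 0.98. Markers were counted at the probe of each gene that stood above background on most arrays. Of 7 hepatocyte markers (ALB, APOA1, APOB, TTR, TF, HNF4A and FGB), all stood above background in the DMSO channel of 24 of 24 arrays. Of 7 markers of blood, endothelial, stromal, muscle and squamous cells, 6 had a probe, and these stood above background by the same rule on 15 to 23 of the 24 arrays. In RNA from whole cultures, fewer expressing cells and less RNA per cell cannot be told apart.

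**Figure D1:**
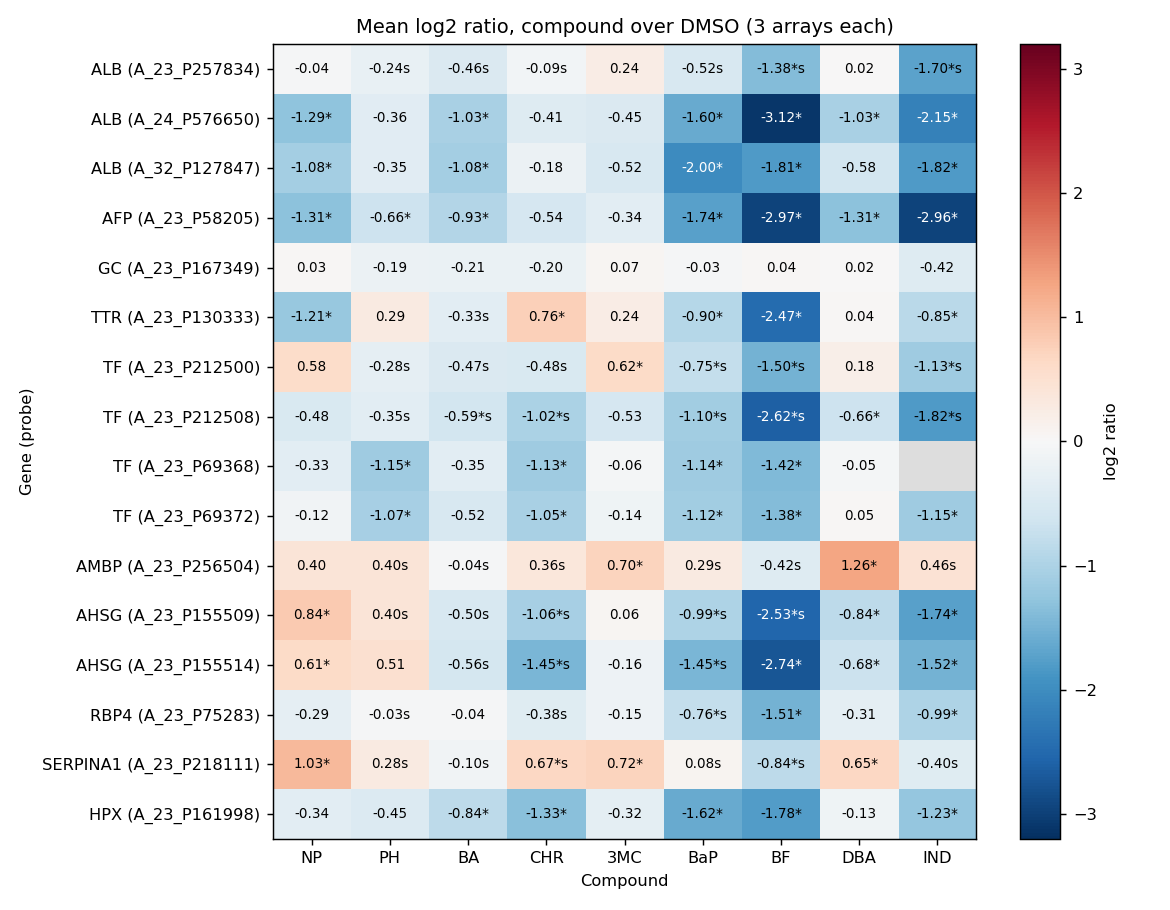
Mean log2 ratio of compound over DMSO for each of the 16 probes (rows) and 9 compounds (columns), 3 arrays each, with blue lower and red higher than DMSO. An asterisk marks a probe that passed the test, s marks a saturated spot on at least 1 array, and the grey cell was not fitted. The BaP, BF and IND columns are mostly blue, with 12, 14 and 12 lower probes, though with median centring AMBP and SERPINA1 were above 0 with BF.

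Each probe's mean log2 ratio was tested against 0 with limma, and a probe passed at a Benjamini-Hochberg adjusted p under 0.05 over all probes tested for that compound and a change of at least 1.5-fold. BF lowered the members most widely: 14 of 15 tested probes fell and 0 rose, where 25.5% of all probes tested fell and 17.8% rose. With BaP 12 of 16 fell and 0 rose (11.1% and 11.9% of all probes), and with IND 12 of 15 fell and 0 rose (12.3% and 8.89%). With CHR 6 of 15 fell and 2 rose (13.7% and 11.4%), with BA 5 of 16 fell and 0 rose (2.76% and 1.83%), and with PH 3 of 16 fell and 0 rose (7.81% and 8.24%), which became 2 lower and 4 higher with median centring. With NP 4 of 16 fell and 3 rose (12.0% and 4.85%), and with DBA 5 of 14 fell and 2 rose (7.04% and 2.77%), a count that became 2 lower and 5 higher with median centring. With 3MC 0 of 16 fell and 3 rose (7.56% and 2.56%), and 0 rose in the authors' values. For 3MC, 5 member probes were lower at the adjusted p alone, with no minimum fold.

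The members' median log2 ratio was -1.78 with BF, -1.23 with IND and -1.05 with BaP, against medians of -0.03, 0.00 and 0.00 over all probes tested. It was -0.49 with BA, -0.48 with CHR, -0.26 with PH, -0.22 with DBA, -0.21 with NP and -0.10 with 3MC, where the medians of all probes were between 0.00 and 0.01. With median centring these 6 medians were -0.08 with BA, -0.05 with CHR, 0.04 with PH, 0.15 with DBA, -0.17 with NP and 0.13 with 3MC, so the sign with PH, DBA and 3MC depends on the scaling. Those of BF, IND and BaP became -1.60, -1.17 and -0.68. Among probes with no saturated spot for the compound, 9 of 9 fell with BF, 7 of 8 with BaP and 9 of 10 with IND. The 5 BA calls were lost when BA was fitted alone (0 fell), and 10 fell without BA array 1. Median centring in place of loess shifted the members' median upwards by 0.14 (NP) to 0.87 (BF), and 53 of 71 calls held in the same direction under it. Of these calls, 10 of 14 held with BF, 9 of 12 with BaP, 9 of 12 with IND and 6 of 8 with CHR.

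With loess, ALB fell most with BF, IND and BaP at A_24_P576650, a probe with no saturated spot on any array. On the BF arrays this probe read 4392, 3792 and 4089 scanner units in Cy5, against 30649, 27340 and 25285 in the DMSO channel. Its log2 ratios with BF were -3.18, -3.17 and -3.01, a mean of -3.12 ± 0.10 (SD, n = 3), or 0.115 of the DMSO level (adjusted p 5.48e-17), and -2.51 or 0.175 of it with median centring. All 3 BF arrays lay below every array of the other 7 compounds on this platform. The IND ratios were -1.97, -2.13 and -2.35 (mean -2.15 ± 0.19, adjusted p 6.30e-07), and the BaP ratios -1.70, -1.34 and -1.77 (mean -1.60 ± 0.23, adjusted p 1.29e-11). NP gave -1.32, -1.30 and -1.26 (mean -1.29 ± 0.03, adjusted p 6.17e-10). On the NP arrays the probe read only 74, 72 and 72 in Cy5, against 360, 353 and 353 in the DMSO channel. Its local Cy5 background was 30 to 39 over the DBA, 3MC and NP arrays. These Cy5 spots were dim next to the background offset of 50, so the size and the small spread with NP are uncertain. DBA gave -1.07, -1.03 and -0.99 (mean -1.03 ± 0.04, adjusted p 3.82e-08). With BA the 3 arrays disagreed, at -0.47, -1.29 and -1.33, and the mean was -1.03 ± 0.49 (adjusted p 2.24e-07), or -1.31 without array 1. ALB at this probe did not pass with 3MC (-0.45 ± 0.02), CHR (-0.41 ± 0.07) or PH (-0.36 ± 0.06), all short of 1.5-fold.

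Lowest first, the mean ratios of ALB at this probe ran BF, BaP, NP, BA, DBA, 3MC, CHR and PH over the shared platform. The arrays of neighbours in this order overlapped for NP and BA, BA and DBA, 3MC and CHR, and CHR and PH. They did not overlap for BF and BaP, BaP and NP, or DBA and 3MC, and the place of NP rests on dim Cy5 spots. This order holds for loess only. With median centring NP (-1.38) lay below BaP (-1.31), DBA (-0.77) below BA (-0.62) and PH (-0.14) below CHR (-0.05).

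The 3 ALB probes did not give the same sizes. A_32_P127847, designed on the same transcript record as A_24_P576650 and also free of saturated spots, fell with NP (-1.08 ± 0.05), BA (-1.08 ± 0.17), BaP (-2.00 ± 0.22), BF (-1.81 ± 0.05) and IND (-1.82 ± 0.16). With BaP and BF its arrays overlapped, whereas those of A_24_P576650 did not. With IND its Cy5 spots read 767, 483 and 685 but exceeded background by 2 background SDs on 0 of 3 arrays. The fall of 3.52-fold there is the measured ratio, and its size is uncertain.

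A_23_P257834, the probe on the main ALB transcript record, had saturated spots with 6 of the 9 compounds. It fell with BF by at least 2.60-fold and with IND by at least 3.26-fold, loess bounds set by DMSO spots at the ceiling. Under median centring the BF call was lost (-0.29) and the measured IND mean was -1.17. With PH, BA and BaP both channels were saturated on all 3 arrays and the ratio has no size. On the NP and DBA arrays this probe had no saturated spot, and its ratios of -0.04 ± 0.17 with NP and 0.02 ± 0.06 with DBA did not pass. Both other ALB probes had means of -1.29 and -1.08 with NP and -1.03 and -0.58 with DBA. With median centring A_23_P257834 was at 0.12 with NP, and at 0.82 with DBA, where it passed as higher. A_24_P576650 and A_32_P127847 were then at -0.77 and -0.48 with DBA, so the direction of ALB differed between probes. The same pair of array groups differed in signal: in the DMSO channel A_24_P576650 read 353 to 1241 on the DBA, 3MC and NP arrays and 19652 to 42857 on the other 18, while A_23_P257834 read 4821 to 25942 and 38535 to 65308. The part of this difference in the ratios was not tested.

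**Figure D2:**
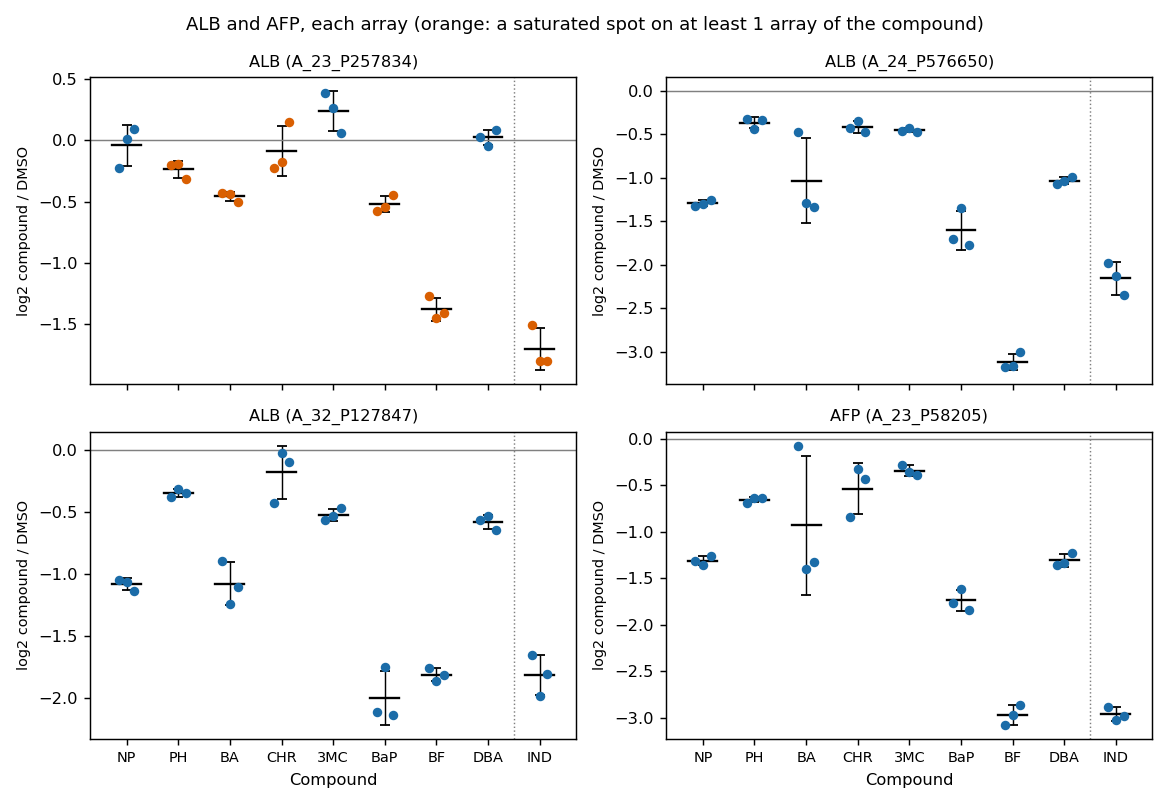
Log2 ratio of compound over DMSO on each array for the 3 ALB probes and the AFP probe, with black lines for the mean and SD of 3 arrays. Points in orange belong to a compound with a saturated spot at that probe, the dotted line parts IND, which is on another platform, and the vertical scales differ. BF is lowest on the shared platform for AFP and for ALB at A_24_P576650, at -2.97 and -3.12, and BA array 1 stands above the other BA arrays.

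**Figure D3:**
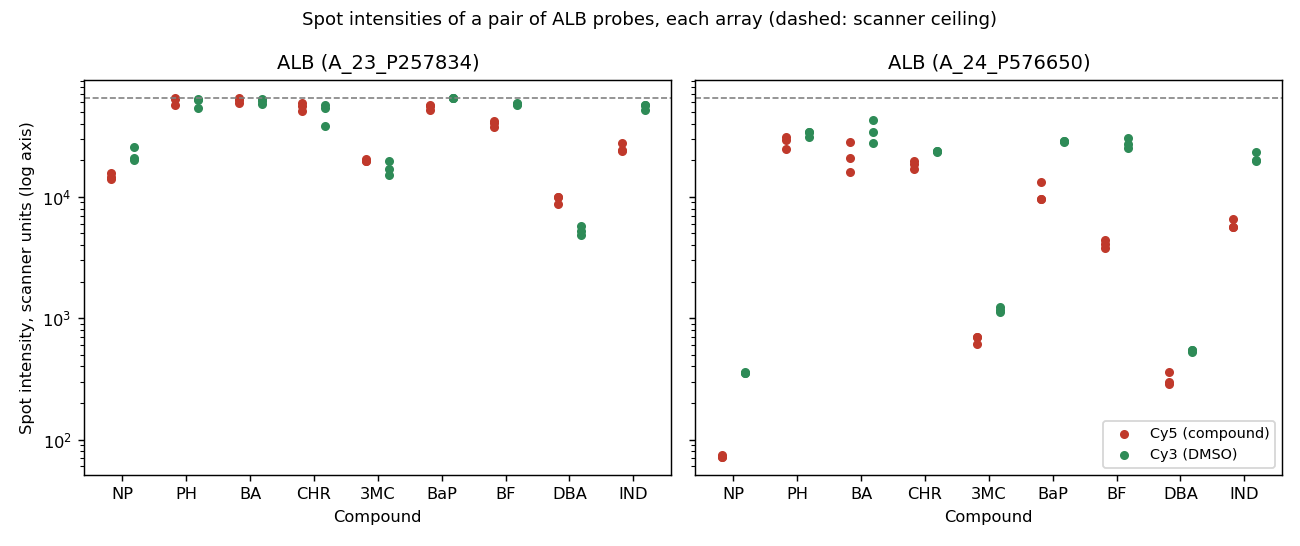
Spot intensity in scanner units (log axis) of a pair of ALB probes on each array, Cy5 (compound, red) left of Cy3 (DMSO, green), with the scanner ceiling dashed. A_23_P257834 lies at or near the ceiling for PH, BA and BaP, while A_24_P576650 stays below it and is dim on the NP, 3MC and DBA arrays.

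AFP fell with 7 of the 9 compounds with loess, more than any other member probe, and its probe had no saturated spot on any array. Its PH and BA calls were lost with median centring, so this ranking holds for loess only. On the BF arrays AFP read 3892, 3462 and 4133 in Cy5, against 25984, 22425 and 23281 in the DMSO channel. Its log2 ratios with BF were -3.07, -2.97 and -2.86, and with IND -2.88, -3.02 and -2.97. Both compounds thus left AFP near 0.128 (BF) and 0.129 (IND) of the DMSO level (adjusted p 5.70e-14 and 9.06e-08), at -2.40 with BF and -2.79 with IND under median centring. BaP gave -1.76, -1.61 and -1.84, a mean of -1.74 ± 0.11 (adjusted p 1.17e-09). NP and DBA gave AFP close means, -1.31 ± 0.05 with NP and -1.31 ± 0.07 with DBA (adjusted p 1.30e-07 and 2.19e-07), but -1.32 with NP and -0.72 with DBA under median centring. PH lowered AFP least among the calls, at -0.69, -0.64 and -0.64 (mean -0.66 ± 0.03, adjusted p 0.000695), a call lost with median centring (-0.49). BA array 1 read -0.08 while BA arrays 2 and 3 read -1.40 and -1.32. The BA mean of -0.93 ± 0.74 passed (adjusted p 4.43e-05), lost the call with median centring (-0.55), and was -1.36 without array 1. CHR (-0.54 ± 0.27) and 3MC (-0.34 ± 0.06) did not pass, and CHR passed without its array 2 (-0.64). Lowest first, AFP ran BF, BaP, NP, DBA, BA, PH, CHR and 3MC over the shared platform. BF and BaP, and BaP and NP, did not overlap, and every later pair of neighbours did.

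GC, which encodes the vitamin D-binding protein, passed with none of the 9 compounds and could be tested with only 6. Its means lay between -0.42 (IND) and 0.07 (3MC). With BF and DBA neither channel stood well above background on any array, so a change was not detectable there.

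TTR, which carries thyroxine and, bound to RBP4, retinol, moved in both directions. Its BF ratios were -2.52, -2.50 and -2.41 (mean -2.47 ± 0.06, or 0.180 of the DMSO level, adjusted p 1.82e-15), from Cy5 signals of 11397 to 13481, against 44327 to 44593 in the DMSO channel. With median centring it was -1.62, or 0.326 of the DMSO level. NP also lowered it, at -1.22, -1.21 and -1.19 (mean -1.21 ± 0.02, adjusted p 1.22e-09). CHR raised TTR, at 0.67, 0.79 and 0.84 (mean 0.76 ± 0.09, adjusted p 9.02e-07), and no CHR array overlapped an array of another compound. BaP (-0.90 ± 0.06) and IND (-0.85 ± 0.04) lowered TTR, calls lost with median centring (-0.58 and -0.46). With BA, array 1 read 0.26 with a saturated spot and arrays 2 and 3 read -0.65 and -0.61, and the mean of -0.33 ± 0.52 did not pass, whereas -0.63 without array 1 did (adjusted p 1.24e-09). DBA, 3MC and PH left it at 0.04 ± 0.08, 0.24 ± 0.04 and 0.29 ± 0.05, none of which passed. With median centring these means were 0.68, 0.49 and 0.56, and the DBA value passed as higher.

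RBP4, the plasma carrier of retinol, fell with BF at -1.54, -1.48 and -1.53 (mean -1.51 ± 0.03, adjusted p 1.21e-16) and with IND, between -1.01 and -0.95 (mean -0.99 ± 0.04, adjusted p 1.58e-06). With BaP its DMSO spots were saturated on all 3 arrays, so it fell by at least 1.70-fold. All 3 RBP4 calls were lost with median centring, at -0.54 with BF, -0.54 with IND and -0.39 with BaP. With NP, where RBP4 did not pass (-0.29 ± 0.02), TTR fell.

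TF encodes transferrin, which delivers iron. Of its 4 probes, A_23_P212500 and A_23_P212508 lie on the main transcript record and were bright, and A_23_P69368 and A_23_P69372 lie on another record and were dim. All 4 fell with BaP and with BF, and all 3 that were fitted fell with IND. With BF, A_23_P212508 gave -2.60, -2.72 and -2.54 (mean -2.62 ± 0.09, 1 saturated DMSO spot, adjusted p 7.04e-13, and -1.71 with median centring), A_23_P212500 fell by at least 2.83-fold, and A_23_P69368 and A_23_P69372 had means of -1.42 ± 0.03 and -1.38 ± 0.06. With PH the dim probes fell (-1.15 ± 0.13 and -1.07 ± 0.13), while A_23_P212500 was saturated in both channels and A_23_P212508 did not pass. The loess bound of A_23_P212508 with PH was 1.27-fold lower, but with median centring its mean was -0.01. With 3MC the bright pair disagreed: A_23_P212500 rose (0.62 ± 0.04, adjusted p 5.55e-10, not passed in the authors' values at 0.42) and A_23_P212508 was at -0.53 ± 0.20 without passing. With NP A_23_P212500 was at 0.58 ± 0.07, just short of 1.5-fold. Under median centring it passed as higher with NP (0.74) and DBA (0.98). CHR lowered A_23_P69368 and A_23_P69372 (-1.13 ± 0.05 and -1.05 ± 0.01) and A_23_P212508 by at least 2.03-fold, the last a call lost with median centring (-0.49). The TF falls at A_23_P212508 with BA (-0.59 ± 0.74) and DBA (-0.66 ± 0.23) were lost with median centring, which gave -0.08 with BA and turned DBA to 0.06. Those of A_23_P212500 with BaP (at least 1.69-fold) and IND (at least 2.18-fold), and with BF, were also lost, at -0.38, -0.56 and -0.43.

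HPX, hemopexin, binds free heme. It fell with BF at -1.71, -1.78 and -1.84 (mean -1.78 ± 0.06, adjusted p 1.49e-12) and with BaP at -1.57, -1.58 and -1.71 (mean -1.62 ± 0.08, adjusted p 1.91e-11). CHR lowered it at -1.53, -1.29 and -1.18 (mean -1.33 ± 0.18, adjusted p 4.86e-10) and IND at -1.16, -1.17 and -1.35 (mean -1.23 ± 0.11, adjusted p 1.64e-06). HPX had no saturated spot, and all 5 of its calls held with median centring. With BF its Cy5 signal stood above background on 1 of 3 arrays. BA array 1 read -0.29 and arrays 2 and 3 read -1.11 and -1.10, and the mean of -0.84 ± 0.47 passed (adjusted p 4.01e-06). With PH, NP, 3MC and DBA it lay between -0.45 and -0.13 and did not pass.

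AHSG, fetuin-A, binds calcium phosphate in plasma and keeps it from depositing. Its 2 probes moved together, with means at most 0.46 apart for any compound. At A_23_P155514 BF gave -2.79, -2.71 and -2.71 (mean -2.74 ± 0.04, or 0.150 of the DMSO level, adjusted p 3.96e-14), with no saturated spot, and with median centring -1.86, or 0.275 of the DMSO level. At A_23_P155509 the BF fall was at least 5.76-fold with loess, and with median centring its measured mean was -1.59, or 3.01-fold lower. IND lowered both probes (-1.52 ± 0.06 at A_23_P155514 and -1.74 ± 0.03 at A_23_P155509), with no saturated spot. BaP lowered A_23_P155514 (-1.45 ± 0.06, 1 saturated DMSO spot) and A_23_P155509 by at least 1.99-fold, and CHR lowered them by at least 2.73-fold and at least 2.09-fold, the last lost with median centring (-0.53). Under median centring the measured means were -0.62 at A_23_P155509 with BaP and -0.97 at A_23_P155514 with CHR, smaller than these loess bounds.

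NP raised both AHSG probes, where AFP and TTR fell. ALB fell with NP at A_24_P576650 and A_32_P127847, from dim Cy5 spots, and not at the brighter A_23_P257834 (-0.04). A_23_P155509 gave 0.69, 0.91 and 0.93 with NP (mean 0.84 ± 0.13, adjusted p 3.29e-06) and A_23_P155514 gave 0.71, 0.59 and 0.53 (mean 0.61 ± 0.10, adjusted p 0.000592, lost without NP array 1 at 0.56 and in the authors' values at 0.45). DBA lowered both, at -0.84 ± 0.24 and -0.68 ± 0.07, but with median centring these were 0.00 and 0.13, so their direction depends on the scaling. With BA, array 1 read 0.06 and 0.24 at the probes and arrays 2 and 3 between -0.97 and -0.74. Both passed without array 1 (-0.78 and -0.97) and neither with it.

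AMBP encodes a precursor that is split into alpha-1-microglobulin, a small carrier that binds heme, and bikunin, a protease inhibitor. It passed in 1 direction only. DBA raised it at 1.40, 1.23 and 1.15 (mean 1.26 ± 0.13, 2.39 times the DMSO level, adjusted p 8.81e-14, and 1.98 on the log2 scale with median centring), and 3MC at 0.72, 0.74 and 0.65 (mean 0.70 ± 0.05, adjusted p 5.55e-10, not passed in the authors' values at 0.58). Both are compounds whose arrays had no saturated AMBP spot. With BF, AMBP was at -0.42 ± 0.07 with all Cy5 spots saturated, which did not pass, and with median centring it rose instead (0.66). With PH, BA, BaP and IND all Cy5 spots were also saturated, and means lay between -0.04 and 0.46. Under median centring AMBP was at 0.99 with IND, 0.89 with CHR, 0.73 with PH, 0.66 with BaP and 0.50 with BA. The restriction of its rise to DBA and 3MC thus holds only for the loess calls.

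SERPINA1, alpha-1-antitrypsin, inhibits neutrophil elastase. NP raised it at 0.84, 1.19 and 1.05 (mean 1.03 ± 0.17, 2.04 times the DMSO level, adjusted p 4.31e-11). 3MC raised it at 0.63, 0.72 and 0.82 (mean 0.72 ± 0.10, adjusted p 2.06e-08) and DBA at 0.71, 0.74 and 0.52 (mean 0.65 ± 0.12, adjusted p 9.26e-08), and both lost the call in the authors' values (0.53 and 0.35), while median centring gave 1.44 with DBA. CHR raised it by at least 1.59-fold, with Cy5 at the ceiling on all 3 arrays. BF lowered it (-0.84 ± 0.06, 1 saturated Cy5 spot, adjusted p 3.51e-10), but with median centring the value was 0.28, so this direction depends on the scaling. With IND, BA, BaP and PH all Cy5 spots were saturated, and SERPINA1 did not pass.

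**Figure D4:**
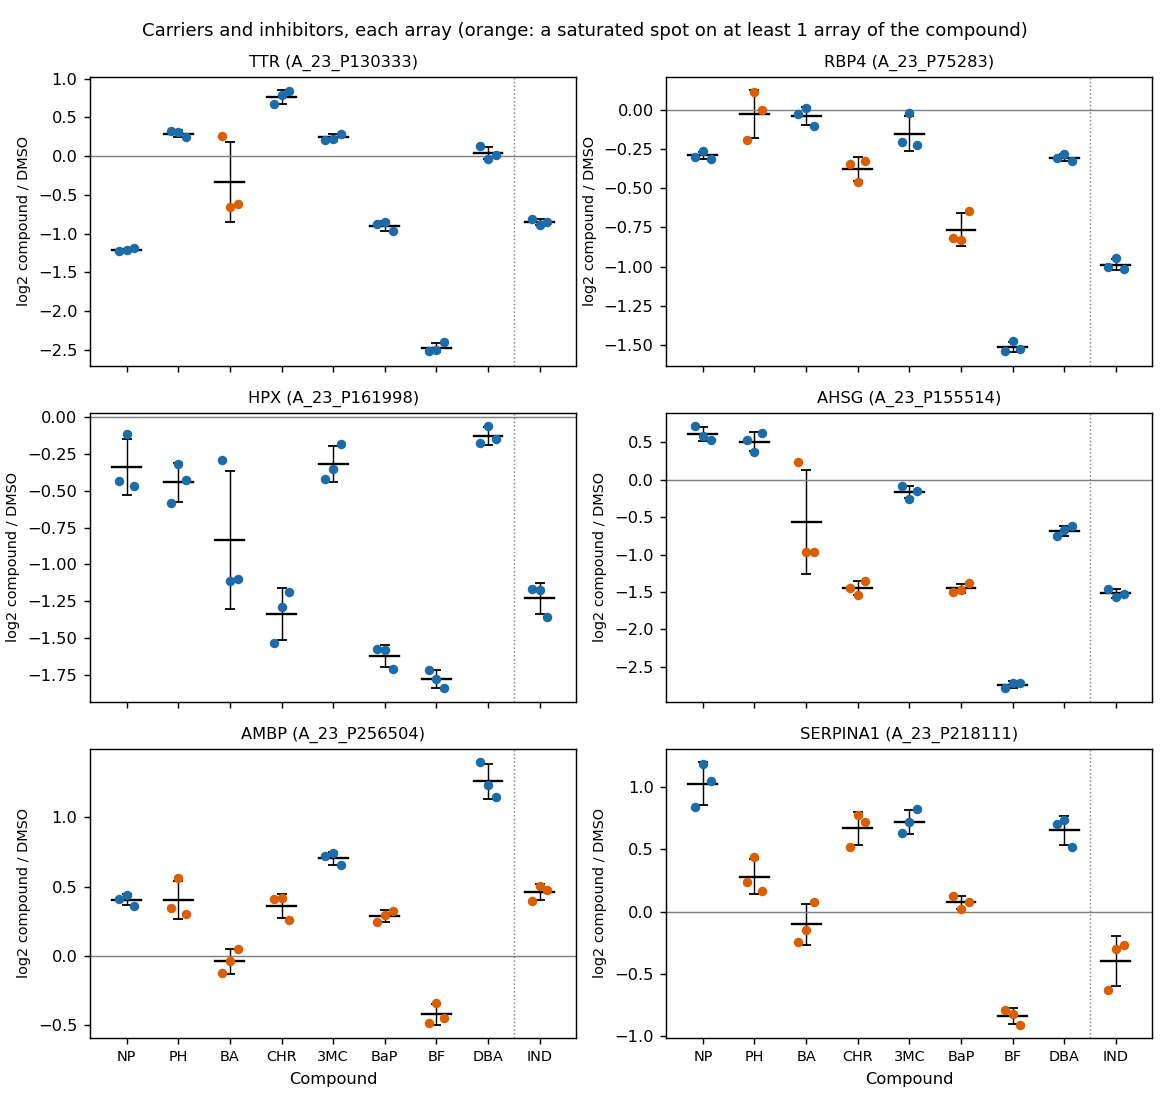
Log2 ratio of compound over DMSO on each array for TTR, RBP4, HPX, AHSG (A_23_P155514), AMBP and SERPINA1, with black lines for the mean and SD of 3 arrays, and vertical scales that differ. Orange points belong to a compound with a saturated spot at that probe, and the dotted line parts IND. AHSG and SERPINA1 lie above 0 with NP, at 0.61 and 1.03, while TTR lies at -1.21, and AMBP is highest with DBA, at 1.26.

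Differences between compounds were tested directly for 4 pairs within the shared platform, with p-values adjusted over all probes of each pair. All 16 member probes also passed limma's F test over the 8 compounds, where 86.0% of all probes tested did. The sizes below are for probes with no saturated spot on any array of the pair.

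BaP and BF are isomers. Of 16 member probes 11 differed between them, where 35.6% of all probes did, and each of the 11 was higher with BaP. Of the 8 probes with no saturated spot 3 passed. ALB at A_24_P576650 was higher with BaP by 1.51 ± 0.15 (SE, adjusted p 9.08e-09), with means of -1.60 with BaP and -3.12 with BF. TTR was higher with BaP by 1.57 ± 0.14 (adjusted p 3.36e-09), and AFP by 1.23 ± 0.21 (adjusted p 2.68e-05). HPX did not pass (0.16, 95% interval -0.16 to 0.48), nor did ALB at A_32_P127847 (-0.19, 95% interval -0.40 to 0.03). With median centring 6 of 16 differed.

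BaP against PH set a larger compound beside a smaller one. Here 9 of 16 member probes differed, where 18.9% of all probes did, and all 9 were lower with BaP. ALB differed by -1.65 ± 0.10 at A_32_P127847 and by -1.24 ± 0.15 at A_24_P576650 on the log2 scale (adjusted p 2.98e-11 and 4.28e-07). TTR, at -0.90 with BaP and 0.29 with PH, differed by -1.19 ± 0.14 (adjusted p 5.38e-07). HPX differed by -1.17 ± 0.15 (adjusted p 1.44e-06) and AFP by -1.08 ± 0.21 (adjusted p 0.000205). The dim TF probes did not pass, at 0.01 (95% interval -0.38 to 0.39) and -0.05 (95% interval -0.30 to 0.20), and both compounds had lowered them.

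DBA against NP compared arrays with no saturated member spot. Of 16 probes 4 differed, where 10.8% of all probes did. TTR was higher with DBA by 1.25 ± 0.14 (adjusted p 5.59e-07), at 0.04 with DBA and -1.21 with NP. AMBP was higher with DBA by 0.85 ± 0.08 (adjusted p 1.79e-08). AHSG was lower with DBA at both probes, with differences of -1.69 ± 0.17 and -1.29 ± 0.19 (adjusted p 8.80e-08 and 1.30e-05). AFP did not pass (0.00, 95% interval -0.44 to 0.44), nor did RBP4 (-0.01, 95% interval -0.17 to 0.14), but both passed with median centring, at 0.60 and 0.63. Median centring gave 9 of 16 that differed, with TTR at 1.78, AMBP at 1.43 and AHSG at -0.66 for A_23_P155514, in place of -1.29.

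CHR and BA are isomers, and this pair includes BA array 1. Of 16 probes 6 differed, where 17.8% of all probes did, and 5 differed without that array. ALB was higher with CHR by 0.62 ± 0.15 at A_24_P576650 and 0.90 ± 0.10 at A_32_P127847 (adjusted p 0.0015 and 3.85e-07), the first a call lost with median centring (0.57). TF at A_23_P69368 was lower with CHR, with a difference of -0.78 ± 0.18 (adjusted p 0.00121). Without BA array 1 the TF call was lost (-0.39), while the ALB differences passed at 0.90 and 0.99. AFP did not pass (0.40, 95% interval -0.04 to 0.84) but passed without that array, at 0.83 (adjusted p 1.98e-06), and neither did HPX (-0.50, 95% interval -0.82 to -0.18), which was short of 1.5-fold and was -0.23 without that array, and passed with median centring (-0.68).

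Of 24 other plasma protein genes, all were on the platforms, with 27 probes. With BF 17 of 23 tested probes fell and 2 rose (median -1.38), where 25.5% of all probes fell and 17.8% rose. With IND 13 of 26 fell and 2 rose (median -0.71, with 12.3% and 8.89% of all probes), and with BaP 9 of 27 fell and 7 rose (median 0.01, with 11.1% and 11.9%). SERPINA3, alpha-1-antichymotrypsin, had the lowest ratio with BF (-4.23 ± 0.16), and SHBG, the carrier of sex steroids, rose with BaP (2.22 ± 0.10), CHR (1.86 ± 0.07), BF (1.55 ± 0.03), 3MC (1.02 ± 0.09) and PH (0.96 ± 0.23). HP and HPR are near-identical haptoglobin genes whose probes may share signal, and their values are uncertain for that reason. HPR fell with BF (-3.45 ± 0.01), BaP (-2.74 ± 0.17), CHR (-2.15 ± 0.10), DBA (-1.88 ± 0.15) and 3MC (-1.27 ± 0.05), and HP fell with the same 5 compounds. SERPINA7, the thyroxine-binding globulin, rose with CHR (1.29 ± 0.10) as TTR did, and also with 3MC (1.25 ± 0.08), and fell with IND (-2.40 ± 0.11) and PH (-1.67 ± 0.05). With DBA the list had 5 lower and 2 higher of 27 probes, and 2 lower and 7 higher with median centring, where with loess 7.04% of all probes fell and 2.77% rose.

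The regulators were 18 genes of transcription factors that bind or restrain these promoters. With CHR 16 of 34 tested probes fell and 1 rose (median -0.57), where 13.7% of all probes fell and 11.4% rose. With BF 13 of 34 fell and 4 rose (median -0.33, with 25.5% and 17.8% of all probes). With BaP, 3 of 36 fell and 4 rose (11.1% and 11.9%), and with IND 5 of 33 fell and 4 rose (12.3% and 8.89%). CEBPA, the C/EBP factor of mature hepatocytes, fell at 2 probes with IND (-1.80 ± 0.21 and -1.80 ± 0.06), at 2 with DBA and at all 3 with BF, the lowest at -2.74 ± 0.06. It also fell with BA (-1.01 ± 0.89 and -1.06 ± 0.71) and BaP (-0.69 ± 0.06), but rose with NP at 1 probe (1.12 ± 0.05) and with PH at 2 (0.72 ± 0.02 and 1.39 ± 0.12). AFP fell with NP and PH, though its PH call was lost with median centring. With CHR, where ALB and AFP did not pass, all 3 CEBPA probes also fell (-1.85 ± 0.09, -1.14 ± 0.96 and -1.47 ± 0.04). HNF4A, a nuclear receptor that many of these genes depend on, fell with BF at 2 probes (-2.00 ± 0.04 and -2.02 ± 0.10) and not at the third (0.21 ± 0.05). PH raised 2 HNF4A probes (0.70 ± 0.17 and 0.66 ± 0.14) and lowered 1 (-0.60 ± 0.15). NR1H4, the bile acid receptor, fell with 6 of the 9 compounds, most with BF (-3.28 ± 0.08), BaP (-2.73 ± 0.04) and CHR (-1.98 ± 0.12). With IND, where ALB and AFP fell, HNF4A lay between -0.29 and 0.08 and did not pass. Any effect of these regulators on the members was not tested. ZHX2 and ZBTB20 are known in mice as repressors of the fetal Afp gene. ZHX2 passed with no compound, at between -0.52 (BF) and 0.29 (PH), and ZBTB20 rose with BF at both probes (1.12 ± 0.20 and 1.09 ± 0.06) and at 1 of them with CHR (0.80 ± 0.18) and BaP (0.59 ± 0.06).

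Receptors and proteins that handle the members were 13 genes with 1 probe each. With BF 7 of 11 tested fell and 2 rose (25.5% and 17.8% of all probes), which became 3 and 2 with median centring, and with IND 5 of 10 fell and 1 rose (12.3% and 8.89%). FCGRT, the receptor that returns albumin to the circulation, fell with BF (-1.20 ± 0.08), IND (-0.99 ± 0.16), BaP (-0.81 ± 0.01) and CHR (-0.61 ± 0.17). TFR2, a transferrin receptor of hepatocytes, fell with BF (-2.89 ± 0.08), CHR (-1.44 ± 0.22), IND (-0.95 ± 0.16) and BaP (-0.64 ± 0.03). TFRC, the main transferrin receptor, fell with DBA (-0.87 ± 0.03) and BaP (-0.85 ± 0.10). With median centring 0 probes of this list fell with DBA, so that TFRC call was lost, and with BaP 2 fell in place of 3. HMOX1, which breaks down heme, rose with BF (1.31 ± 0.09) and CHR (0.71 ± 0.11) and fell with NP (-0.84 ± 0.04). It also rose with IND, by at least 3.66 on the log2 scale with loess, with all 3 Cy5 spots saturated.

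Likeness to ALB and AFP was searched over 23585 candidates among probes of other genes that passed the F test. The 3 genes whose mean ratios over the 8 shared-platform compounds were most like those of ALB at A_24_P576650 were MAN1A1 (Pearson r 0.97), THBS1 (0.96) and FGL1 (0.96). For AFP they were FGL1 (0.96), MAN1A1 (0.96) and CSNK1A1 (0.96). These are descriptions over 8 compound means that come from the same arrays, BA array 1 and the dim NP arrays included. Each r is the highest of a large search and was not tested. FGL1, a fibrinogen-like protein secreted by hepatocytes, had -1.55 with BF, -0.93 with BaP and -0.23 with PH, against -3.12, -1.60 and -0.36 for ALB.

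**Figure D5:**
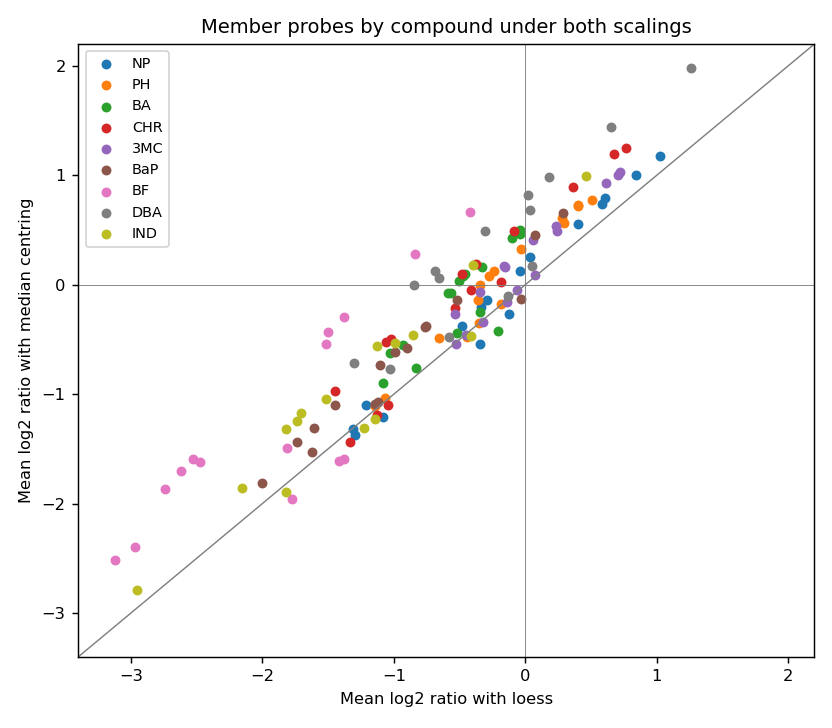
Mean log2 ratio of each member probe and compound with loess (horizontal axis) and with median centring (vertical axis), coloured by compound, with a grey line where both are equal. Most points lie above the line, and BF and DBA points lie farthest from it, with median shifts of 0.87 and 0.68.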

How the data were processed

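The data were 27 arrays of HepG2 cells, 3 for each of 9 compounds, with the compound's RNA labelled with Cy5 and that of DMSO cells with Cy3, per the labels. The deposited scanner output gives, per the file headers, intensity in both dyes for every spot and for the background around it, with no normalisation or subtraction, and the percent of saturated pixels. A separate deposited table holds the authors' log2 ratios, whose normalisation is not given in the sources used here. Of its columns, 20 were tied to spots and served as an alternative, and 7 (1 array each of 3MC, NP, CHR and BA, and all of IND) were left out.

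With R 4.3.3 and limma 3.58.1, background was corrected with normexp (offset 50) and each array was normalised with loess. Control spots and those with a flag of -75 or lower were dropped. A probe was tested if a channel exceeded background by 2 background SDs on at least 2 of 3 arrays. The 24 arrays of the shared platform were fitted together and IND alone, with 1 mean per compound, on all probes, and tests were 2-sided. A spot with over 10% of pixels at the ceiling counted as saturated. Where 1 channel was saturated on all 3 arrays, the fold is a lower bound on the loess scale. Where 1 channel was not well above background on all 3, the measured ratio is given and its size is uncertain. Probes of the gene lists were named through RefSeq accession, symbol or a synonym that belongs to 1 gene (26425 of 41000 probes). Summaries and figures used Python 3.11.15, pandas 2.3.3, numpy 2.4.6 and matplotlib 3.10.9. The number of arrays limits the precision.

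The members and gene lists were chosen with earlier results of these data known. Named genes were all members, regulators, up to 3 genes of each other list per compound and direction with the largest change that passed, and the 3 genes most like ALB and AFP, and some genes of the lists are counted but not reported here by name. In simulated ratios with 200 changed probes for each compound, 98% to 100% of 2-fold changes and 100% of 4-fold changes passed. At most 3 unchanged probes passed. This checks the fit only, because ratios and not spot intensities were simulated. Recovery was not tested for saturated spots, for spots near background or with an array that stands apart, as in BA. Arrays with the same number did not deviate together (mean correlation of residuals 0.00487 over 84 pairs, lowest -0.144, highest 0.153), so the numbers pair nothing. Alternatives were other background corrections, scalings, filters and thresholds, separate fits, weighting of arrays, a replicate block, the deposited ratios and each array left out.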

Additional observations from a re-analysis of the deposited data

Results flagged for a closer look

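Each of the following is a difference between the log2 ratios of a pair of compounds that passed limma's test of that difference, at a probe with no saturated spot in the pair. Their causes were not tested.

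Between CHR and BA (CHR minus BA), ALB differed by 0.62 at A_24_P576650 and 0.90 at A_32_P127847, and TF at A_23_P69368 by -0.78. Between BaP and BF, ALB at A_24_P576650 differed by 1.51, AFP by 1.23 and TTR by 1.57. Between BaP and PH, ALB differed by -1.24 at A_24_P576650 and -1.65 at A_32_P127847, AFP by -1.08, TTR by -1.19 and HPX by -1.17. Between DBA and NP, TTR differed by 1.25, AMBP by 0.85, and AHSG by -1.69 at A_23_P155509 and -1.29 at A_23_P155514. BA array 1, which stood apart, enters the first 3 of these 15 differences. Without it the ALB differences were 0.90 and 0.99, and the TF difference was -0.39 and no longer passed. Each compound had 3 arrays, so single arrays were not tested as outliers.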

How the results depend on the processing

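Aquantile scaling, which leaves ratios as they are, a filter on all 3 arrays and a replicate block moved no member call among the values each gave, and the block left every count of calls as it was. With no filter on dim probes 13 were lower with IND, the added one being TF at A_23_P69368, which the filter had left untested. No background correction added 1 call of single probes, array weights 6 and background subtraction 4 (with 1 lost), saturated spots left out added 2, separate fits lost 5, and the authors' values added 3 and lost 7. Median centring lost 14, added 11 and turned 5 round, at 0.66 and 0.28 for AMBP and SERPINA1 with BF, 0.0589 for TF at A_23_P212508 with DBA, and 0.00103 and 0.13 for AHSG with DBA.

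Under median centring 10 of the 14 lower calls with BF held, 9 of 12 with BaP, 9 of 12 with IND and 6 of the 8 calls with CHR. The counts of lower probes became 3 with BA and 2 with DBA. Those of higher probes became 4 with PH, 1 with BaP, 1 with BF, 5 with DBA and 1 with IND, and 6 differed for BaP minus BF and 9 for DBA minus NP. TF at A_23_P212500 with NP (0.74) and AMBP with CHR (0.89) were also added as higher. At the adjusted p alone, 8 were lower with NP, 9 with PH, 13 with BA, 11 with CHR and 5 with 3MC, 5 were higher with NP, 5 with PH, 1 with BaP and 1 with IND, and 12 differed for CHR minus BA and 7 for DBA minus NP. At 2-fold, 2 were lower with BA and 2 with DBA, 1 was higher with NP, 0 with CHR, 0 with 3MC and 1 with DBA, and 1 differed for CHR minus BA and 6 for BaP minus BF. With saturated spots left out, CHR had 3 lower and 1 higher, BaP minus BF 4, and the F test 8, because fewer probes had values. With BA fitted alone 0 were lower with BA, and with array weights 10. In the authors' values 0 were higher with 3MC and 1 with DBA. The causes were otherwise not tested.

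Leaving out each array in turn gave lower counts of 4 to 10 with BA (10 without array 1), 0 to 1 with 3MC, 6 to 7 with CHR and 5 to 6 with DBA, and higher counts of 3 to 4 with NP. It gave 5 to 9 for CHR minus BA and left 4, 3, 12, 14 and 12 lower with NP, PH, BaP, BF and IND, 2, 3 and 2 higher with CHR, 3MC and DBA, 0 higher with PH, BA, BaP, BF and IND, 11, 9 and 4 for BaP minus BF, BaP minus PH and DBA minus NP, and 16 in the F test. The array numbers gave no pairing, and with the replicate block 14 probes were lower with BF and 12 with BaP.

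Over all probes, median centring changed the share of higher calls to 14.9% with NP, 65.9% with BaP, 70.2% with DBA and 51.7% with BF, against 28.8%, 51.9%, 28.3% and 41.0% with loess, and to 65.6% for BaP minus PH and 95.9% for DBA minus NP, against 51.7% and 67.6%. It gave 4392 calls with BA in place of 1712 and 7701 for DBA minus NP in place of 4331. Background subtraction gave 6408 calls with DBA (3129), 6451 with 3MC (3989), 10128 with NP (6751), 3079 with BA and 7109 for DBA minus NP. Array weights gave 3381 with BA, separate fits 0, the authors' values 898 (and 16142 in the F test in place of 35231), and leaving out BA array 1, 2 or 3 gave 3477, 1129 or 1130. The adjusted p alone gave 12746 to 24353 calls per compound and 2-fold 286 to 6679, in place of 1712 to 12673. Spots at the ceiling and at background limit what the members can show: GC could not be tested with 3 of 9 compounds, and ALB at A_23_P257834 has no size with PH, BA and BaP.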
